A study of Mus musculus with 2 samples.

Results

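Itgbl1 and 9 integrin subunit genes were followed through the cells of fibrotic mouse liver, with 1 Mfap2+/+ library (WT) set beside 1 Mfap2-/- library (KO). The integrins are Itga1, Itga5, Itga8, Itga9, Itgav, Itgb1, Itgb3, Itgb5 and Itgb8. All 10 symbols were found among the 32285 genes listed for each library, and each occurred in both. The genes were chosen with their levels by cell type in these 2 libraries already known, so the levels and ratios below are descriptions and none is tested.

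Both groups were treated alike apart from genotype: CCl4, a liver toxin that causes fibrosis, was given into the peritoneum over 8 weeks, and the liver cells other than hepatocytes were isolated and sequenced with droplet 3′ chemistry. Mfap2 encodes a glycoprotein of the microfibrils on which elastic fibres form and to which TGF-beta complexes bind. The strain, age and sex of the animals, the number of animals behind each library and the way the Mfap2 allele was made are not given in the sources used here. With 1 library per genotype, the genotype, the animals and the preparation cannot be told apart.

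Integrins are receptors of the cell surface, each built of an alpha and a beta subunit, that hold cells to the matrix and carry signals across the membrane. In liver fibrosis the alpha v integrins are known for releasing TGF-beta from its latent complex at the surface of stellate cells and fibroblasts, the cells that lay down scar. Itgbl1 encodes a secreted protein made of repeats like those in the stalk of integrin beta subunits. It has no membrane anchor and is not itself a receptor chain.

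The stretches just before the start sites of Itgbl1 and Itga8 are shown because these are the genes whose mesenchymal levels the results turn on and because they differ in kind. Sequences are from RefSeq (GRCm38.p6), which held a promoter entry for 9 of the 10 members (not for Itgb3), and capitals mark each CG pair. The Itgbl1 stretch is chr14:123659890-123659970 on the + strand (81 bases) and the Itga8 stretch is chr2:12301945-12302194 on the − strand (250 bases).
Itgbl1: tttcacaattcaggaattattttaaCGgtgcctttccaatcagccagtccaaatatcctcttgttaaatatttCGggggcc
Itga8: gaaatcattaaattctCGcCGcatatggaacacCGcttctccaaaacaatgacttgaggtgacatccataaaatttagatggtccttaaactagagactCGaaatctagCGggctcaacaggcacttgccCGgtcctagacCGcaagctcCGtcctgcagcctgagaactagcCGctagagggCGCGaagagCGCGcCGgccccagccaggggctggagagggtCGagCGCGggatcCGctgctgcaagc

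The full promoter window of Itgbl1 (250 bases before to 50 after the start) held 6 CG pairs and that of Itga8 held 23, against a median of 7 (quartiles 3 and 20) over 32851 windows of that length. The SMAD site CAGAC, the TEAD site GGAATG and the AP-1 site TGANTCA were searched on both strands and do not overlap in their letters. None was found in either window. They occur in 49.6%, 14.7% and 7.81% of all windows. A match or its absence is a description of these letters only.

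The members lie on 9 chromosomes of GRCm38. Itgbl1 spans bases 123659971 to 123975618 of chromosome 14, Itgav 83724397 to 83806916 of chromosome 2 and Itga8 12106632 to 12301922 of the same chromosome. Itga1 spans 114953096 to 115101964 of chromosome 13, Itga5 103344286 to 103366763 of chromosome 15 and Itga9 118606690 to 118901003 of chromosome 9. Itgb1 spans 128685654 to 128733200 of chromosome 8, Itgb3 104608000 to 104670476 of chromosome 11, Itgb5 33829665 to 33949338 of chromosome 16 and Itgb8 119158022 to 119238802 of chromosome 12. Itga1 overlaps Pelo and Gm49395 on its own strand and Gm10734 on the other, so its counts are uncertain by what those genes took or gave. Itga5, Itga8 and Itgbl1 overlap small annotated genes on their own strand (Mir6963, Gm37701 and Gm25272), and Itgav, Itga8, Itga9 and Itgbl1 overlap genes on the opposite one.

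The WT library held 11783 barcodes with a median of 4685 UMIs (unique molecular identifiers, each marking 1 captured RNA molecule), and KO library 12872 barcodes with a median of 6511. They shared 40 barcodes. After filtering, 10336 WT and 11428 KO cells fell into 27 clusters, of which 23 took a class name from marker genes and 4 did not. Mfap2 itself had 211 UMIs in the WT and 2 in KO cells kept, which matches the labels. Levels are the summed UMIs of a class, scaled to 1000000 UMIs of that class and library, written CPM. A log2 ratio compares KO with WT, is above 0 where KO is higher, and has 1 count added on each side. Ranges in parentheses are 95% intervals, and all of them cover counting error only. Levels of different genes are not compared with each other.

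The mesenchymal-like class, which held the highest level of 5 of the 10 members among the named classes, was 1 cluster of 199 cells in each library, with 14 of 14 listed mesenchymal markers raised, among them Col1a1, Dcn, Pdgfrb and Lrat. Median depth was 12904 UMIs in the WT and 14377 in KO cells. Itgbl1 was the third leading gene of this cluster although no member was used for clustering. A second cluster (42 and 65 cells, led by Tpm2 and Tagln) also raised all 14 markers but was far shallower and was left without a name.

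Itgbl1 was found mainly in mesenchymal-like cells. That class made up 1.93% of cells in WT and 1.74% in KO, and held 90.5% and 85.1% of all Itgbl1 UMIs. Its level there was 88.2 CPM in WT (77.6 to 99.9, 248 UMIs) and 188 in KO (173 to 204, 586 UMIs), with a log2 ratio of 1.09 (0.87 to 1.31). The 2 intervals do not overlap. In the other 14 classes the level did not exceed 2.32 CPM in either library. Endothelial-like cells had 3 and 17 Itgbl1 UMIs (0.481 and 1.46 CPM, log2 ratio 1.27, -0.19 to 4.02) and macrophage-like cells 4 and 28 (0.176 and 0.963 CPM, 2.18, 0.94 to 4.42). B-like cells, which should lack the gene, had 0.673 and 0.775 CPM, and the part of free RNA in these low levels was not tested.

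Even in this class most cells held no Itgbl1 molecule. A UMI was found in 49 of 199 WT cells (24.6%, 18.8 to 31.2) and 66 of 199 KO cells (33.2%, 26.7 to 40.2). After thinning each cell to 1000 UMIs the shares were 5.05% of 198 and 11.1% of 199 cells. B-like cells held a UMI in 0.243% and 0.387% of cells, with 3379 and 4764 UMIs as their median depths. In the thinned counts they had 0 of 1204 and 0 of 1769, which allows shares with a UMI at that depth of up to 0.249% and 0.170% (3 counts of the total). The UMIs were also bunched: the 5 richest cells held 31.0% of the Itgbl1 UMIs in WT and 35.0% in KO, with up to 21 and 66 in 1 cell. Without those 5 cells of each library the log2 ratio was 1.01.

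**Figure D1:**
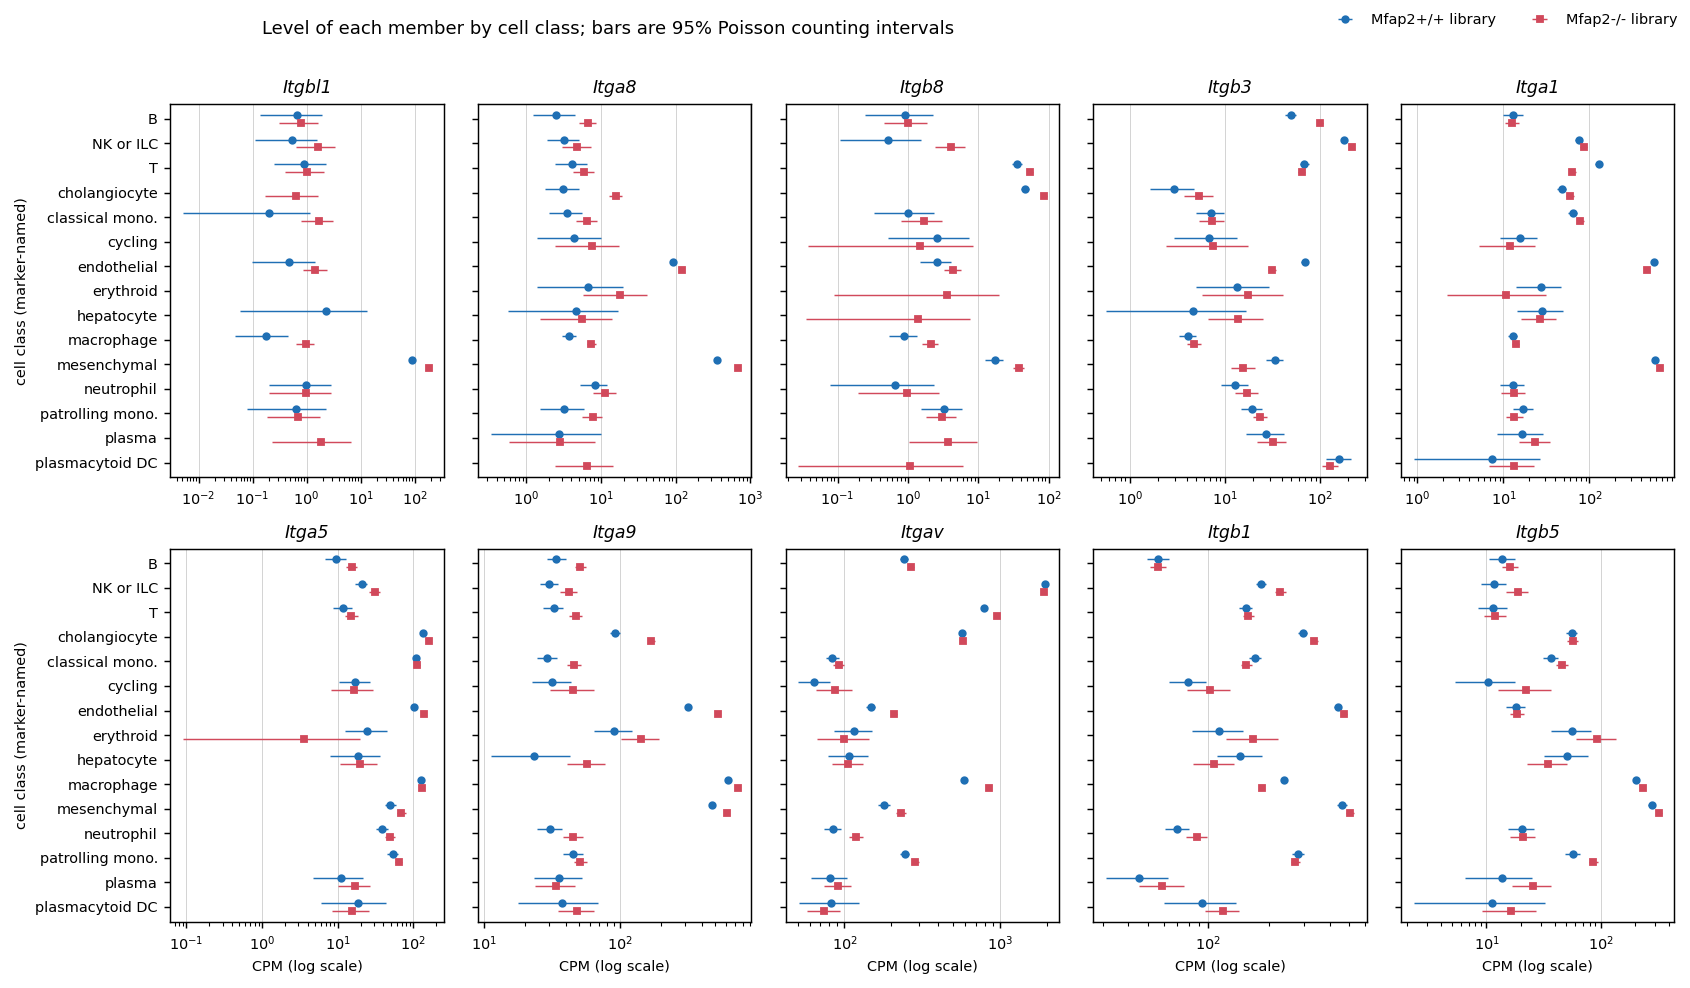
Level of each of the 10 members in CPM (log scale, x axis, range set for each panel) in 15 cell classes (y axis), with circles for the WT and squares for KO library and bars for 95% Poisson intervals; a class with 0 UMIs has no point. Itgbl1 stands at 88.2 and 188 in mesenchymal-like cells and at or below 2.32 elsewhere, while Itgb1 and Itgav are spread over many classes.

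Within the mesenchymal-like class the members were unevenly spread. Splitting the class again, with members left out, gave 7 sub-clusters whose cells came in very unequal numbers from the 2 libraries. Sub-cluster 0 held 91 WT and 8 KO cells and was stellate-like, with 4 of 9 stellate markers raised. Sub-cluster 3 held 18 and 32 cells and was fibroblast-like, with 5 of 9 fibroblast markers raised. The other 5 sub-clusters raised fewer than 3 markers of any subtype and are given by number. Sub-clusters split by library in this way may reflect the library rather than a cell type.

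Itgbl1 had 1 UMI in each library in the stellate-like sub-cluster 0. This is 0.849 CPM in WT (0.02 to 4.73) and 8.44 in the 8 KO cells (0.21 to 47.0). Sub-cluster 4 had 0 and 4 Itgbl1 UMIs, and sub-cluster 1 had 2 and 22 (8.00 and 29.9 CPM). Itgbl1 was highest in the fibroblast-like sub-cluster 3, at 438 CPM in WT (357 to 532, 102 UMIs) and 552 in KO (494 to 614, 333 UMIs), where the intervals overlap. In sub-cluster 6, with 15 and 13 cells, it stood at 258 (197 to 333) and 332 (263 to 415), again with overlapping intervals. In sub-cluster 2, with 45 and 13 cells and Mgp and Fbln2 among its leading genes, the levels stood apart at 102 (81.3 to 127, 82 UMIs) and 424 (348 to 510, 111 UMIs). Without sub-cluster 0 the log2 ratio was 0.36. With the WT sub-clusters weighted to KO numbers of cells it was 0.75, and with KO weighted to WT it was 1.24. The part that makeup plays in the ratio was not tested.

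Doublet handling moved the Itgbl1 value as well. The log2 ratio was 1.57 with no doublets removed and 1.76 with the automatic Scrublet threshold, which removed 7 WT and 782 KO cells. It was above 0 in all 16 alternatives.

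**Figure D2:**
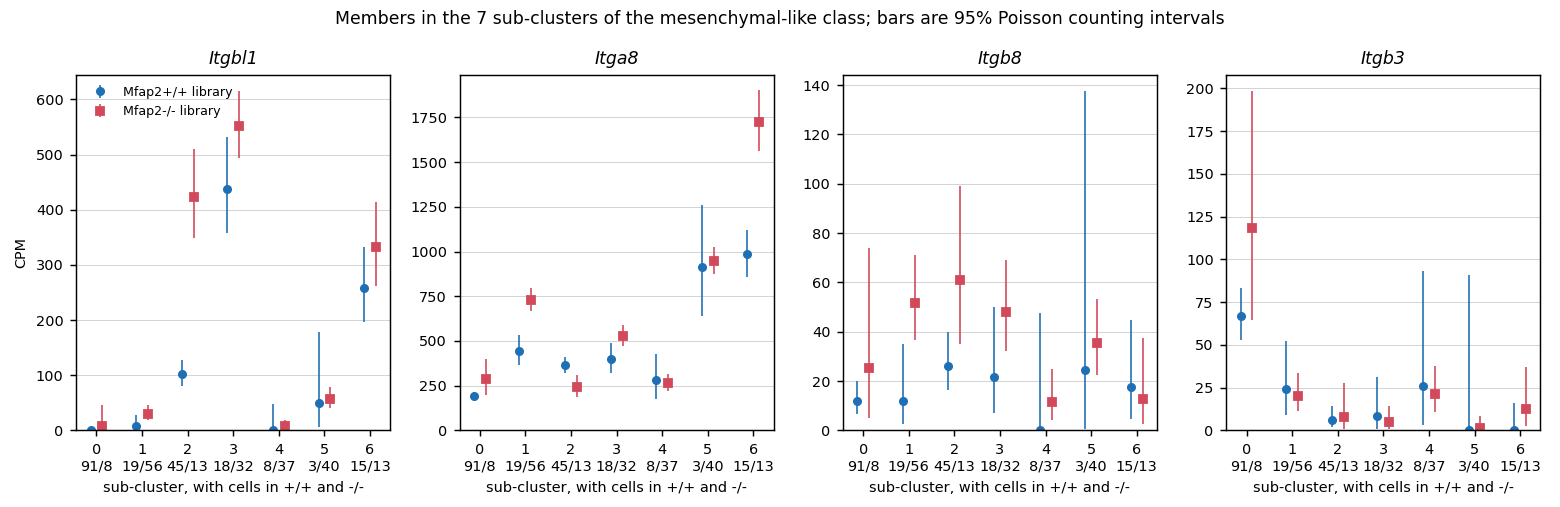
Level of Itgbl1, Itga8, Itgb8 and Itgb3 in CPM (y axis, from 0) in the 7 sub-clusters of the mesenchymal-like class (x axis, with the numbers of WT and KO cells), circles for the WT and squares for KO library, bars for 95% Poisson intervals. Itgbl1 is highest in sub-cluster 3 (438 and 552), and Itgb3 in sub-cluster 0 (67.1 and 118), which holds 91 WT but 8 KO cells.

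Itga8, the alpha subunit that pairs with Itgb1 to bind the RGD motif of nephronectin and fibronectin, was highest in mesenchymal-like cells and higher there in KO. It stood at 358 CPM in WT (336 to 380, 1005 UMIs) and 676 in KO (647 to 705, 2107 UMIs), with a log2 ratio of 0.92 (0.81 to 1.03). A UMI was found in 73.9% and 89.9% of cells, and after thinning in 23.2% (17.5 to 29.7) and 42.7% (35.7 to 49.9), so the shares also stood apart at equal depth. In sub-cluster 1 (19 and 56 cells) the levels were 444 (365 to 535) and 731 (670 to 795). In sub-cluster 6 they were 985 (860 to 1122) and 1726 (1562 to 1902). In sub-cluster 2 the order was the other way, with 364 (323 to 408) and 240 (185 to 307). In sub-clusters 0, 3, 4 and 5 the intervals overlap. Sub-cluster 5, with 3 WT and 40 KO cells, stood at 912 (642 to 1258) and 948 (875 to 1026). It held 37 of the 1005 WT and 612 of the 2107 KO Itga8 UMIs. The part that makeup plays in the Itga8 ratio was not tested. Weighting the sub-clusters to the WT or KO mix lowered the log2 ratio to 0.36 or 0.33, and without sub-cluster 0 it was 0.53.

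Endothelial-like cells came next in Itga8 level, above the other 13 classes, at 93.0 CPM in WT (85.5 to 101) and 123 in KO (116 to 129), with a log2 ratio of 0.40 (0.26 to 0.54). The interval of the Itga8 ratio lay above 0 in 7 of the 10 classes with at least 20 of its UMIs and below 0 in none. The median log2 ratio of all genes lay between -0.03 and 0.15 in these 10 classes. Intervals lay above 0 for 26.1%, 22.2% and 35.2% of all genes in mesenchymal-like, endothelial-like and macrophage-like cells. That share was not counted in the other classes. The unnamed cluster 9, with 109 and 207 UMIs, had a log2 ratio of -0.23 (-0.57 to 0.12). Cholangiocyte-like cells had 16 and 100 Itga8 UMIs (log2 ratio 2.29, 1.59 to 3.22) and patrolling monocyte-like cells 10 and 45 (1.16, 0.25 to 2.42). B-like cells, taken as background, had 11 and 60 (1.33, 0.49 to 2.51). The background thus differed between the libraries in the same direction, and its part in the low counts was not tested.

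Itgb8, whose protein pairs with alpha v and releases TGF-beta from its latent complex, was highest in 3 classes. Cholangiocyte-like cells, the lining of the bile ducts, had 46.5 CPM in WT (40.8 to 52.7) and 86.6 in KO (79.4 to 94.1), with a log2 ratio of 0.89 (0.68 to 1.12). T-like cells had 35.7 (30.3 to 41.8) and 55.3 (49.9 to 61.1). These T-like UMIs lay mainly in 1 cluster, led by Il1rl1, Foxp3 and Tnfrsf4, where the levels were 188 (158 to 222) and 185. The log2 ratio within it was -0.03 (-0.31 to 0.27). That cluster held 177 of 742 WT and 351 of 959 KO T-like cells. The part of this in the T-like level of Itgb8 was not tested.

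Mesenchymal-like cells had 48 WT and 118 KO Itgb8 UMIs, levels of 17.1 (12.6 to 22.6) and 37.8 (31.3 to 45.3) and a log2 ratio of 1.13 (0.65 to 1.66). It was 1.14 or 1.20 under the weightings of sub-clusters and 0.85 without sub-cluster 0. It was 0.63 with no doublets removed. After thinning the class totals it was 2.31, on shares of 0.505% and 4.02% of cells. Low counts in NK or innate lymphoid-like cells (3 and 18 UMIs, log2 ratio 2.63, 1.19 to 5.37) and macrophage-like cells (20 and 61 UMIs, 1.21, 0.50 to 2.06) had intervals above 0, at levels of at most 4.12 CPM.

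Itgb3, which forms the vitronectin receptor with alpha v and the platelet fibrinogen receptor with Itga2b, was lower in KO in mesenchymal-like and endothelial-like cells and higher in B-like cells, while over all cells kept the levels were 34.7 CPM in either library. In mesenchymal-like cells it stood at 33.4 CPM in WT (27.0 to 40.9, 94 UMIs) and 15.7 in KO (11.6 to 20.8, 49 UMIs), with a log2 ratio of -1.08 (-1.62 to -0.58). The stellate-like sub-cluster 0 held 79 of these 94 molecules in WT and 14 of 49 in KO, and Itgb3 was among its 10 leading genes although it was left out of the clustering. Within that sub-cluster the level was 67.1 (53.1 to 83.6) in WT and 118 (64.6 to 198) in the 8 KO cells. Outside it the log2 ratio was 0.29, and with either library weighted to the other's mix it was 0.70 or 0.055. In no sub-cluster was Itgb3 lower in KO with intervals that stood apart. The part that the smaller number of sub-cluster 0 cells plays in the lower class level was not tested.

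Endothelial-like cells showed the same direction for Itgb3 with more molecules. This class was also made up unequally: when it was split again, 1 sub-cluster held 25 WT and 525 KO cells and another 220 and 6, and the part of this in any endothelial-like ratio was not tested. The level was 69.1 CPM in WT (62.7 to 75.9, 431 UMIs) and 31.5 in KO (28.4 to 34.9, 367 UMIs), with a log2 ratio of -1.13 (-1.34 to -0.93). In cluster 5, led by Flt4 and Stab2 of sinusoidal endothelium, the values were 93.5 and 45.1 (log2 ratio -1.04, -1.39 to -0.71). In cluster 10, led by Cfap69, Asb4 and Esm1, they were 78.1 and 28.7 (-1.45, -1.77 to -1.11). In cluster 14, led by Selp, Cdh13 and Edn1 of larger vessels, they were 28.0 and 21.8 (-0.36, -0.91 to 0.19), an interval that holds 0. In the small cluster 21 they were 211 and 117, from 26 and 13 UMIs, with platelet markers at 5855 and 2256 CPM and an interval that holds 0. The log2 ratio of the class lay between -1.57 and -0.88 in 14 alternatives.

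Platelets carry Itgb3, and their markers were lower in KO in the classes where Itgb3 was lower and also in others. The 7 listed platelet markers summed to 210 CPM in WT and 58.4 in KO endothelial-like cells, and to 92.9 and 46.5 in mesenchymal-like cells. Pf4 is on this list and macrophage-like cells also held the markers, at 224 and 133, while their Itgb3 level was 4.10 and 4.71. In B-like cells, where Itgb3 was higher in KO, the markers summed to 23.8 and 11.6. Within the endothelial-like class they summed to 87.7 and 22.8 in cluster 5, 156 and 36.4 in cluster 10, and 56.4 and 53.6 in cluster 14. Endothelial-like cells without any platelet marker UMI had Itgb3 at 59.2 and 30.7 CPM (log2 ratio -0.95, -1.19 to -0.70). In such cells the ratio was -1.14 (-1.53 to -0.77) in cluster 5 and -1.08 (-1.50 to -0.61) in cluster 10. It was -0.03 (-0.70 to 0.67) in cluster 14, and cluster 21 had only 6 and 3 Itgb3 UMIs left. In mesenchymal-like cells without such a UMI only 17 and 23 Itgb3 UMIs were left, with a log2 ratio of -0.31 (-1.26 to 0.70). The part of platelet RNA in the Itgb3 ratios was not tested.

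B-like cells went the other way. Itgb3 stood at 49.4 CPM in WT (43.1 to 56.4, 220 UMIs) and 101 in KO (94.9 to 108, 915 UMIs), with a log2 ratio of 1.03 (0.82 to 1.26), and of 1.16 in B-like cells with no platelet marker UMI. The highest Itgb3 levels were in NK or innate lymphoid-like cells, at 178 (167 to 189) and 216 (203 to 230). Plasmacytoid dendritic-like cells came next, at 160 in 33 WT and 129 in 94 KO cells. The intervals of these 2 classes overlap in WT and stand apart in KO.

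Itgav is the alpha v subunit shared by Itgb1, Itgb3, Itgb5 and Itgb8. Among the named classes it was highest in NK or innate lymphoid-like, T-like, macrophage-like and cholangiocyte-like cells. NK or innate lymphoid-like cells had 1961 CPM in WT (1925 to 1998) and 1926 in KO (1885 to 1967), which overlap. T-like cells followed at 794 and 962, from 3489 and 6728 UMIs. The Foxp3-led cluster had 2381 and 2255 (1784 and 4484 UMIs, log2 ratio -0.08, -0.16 to 0.00). The Cd8a-led cluster had 503 and 512 (1670 and 2118 UMIs, 0.03, -0.07 to 0.12). In the remaining T-like cluster, with 35 and 126 UMIs, the log2 ratio was 0.39 (-0.13 to 1.01). The Foxp3-led cluster held 177 WT and 351 KO cells, and the part of this in the T-like level was not tested. Macrophage-like cells had 583 (573 to 593) and 845 (835 to 856), with a log2 ratio of 0.54 (0.51 to 0.57). That difference was widest in cluster 1, led by the Kupffer cell genes Marco, Clec4f and Cd5l, at 517 and 837 (log2 ratio 0.69). It was narrow in cluster 4, led by Negr1 and Clec4b1, at 776 and 864 (0.16), and cluster 11, led by Gpnmb and Mmp12, had 631 and 820 (0.38). Cluster 1 held 1399 WT and 897 KO cells and cluster 4 held 463 and 1034. Cholangiocyte-like cells had 566 CPM of Itgav in WT (546 to 587) and 578 in KO (560 to 598). In WT this overlaps the macrophage-like level.

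In mesenchymal-like cells Itgav stood at 179 CPM in WT (164 to 195) and 232 in KO (216 to 250), with a log2 ratio of 0.37 (0.21 to 0.54). It was -0.036 under the automatic doublet threshold. Endothelial-like cells had 148 (138 to 157) and 209 (201 to 218), with a log2 ratio of 0.50 (0.39 to 0.61). The gene Gm13684 lies on the opposite strand of Itgav, and its level over the classes was the most like that of Itgav of all genes compared. Whether the counting used strand is not given in the sources used here. Gm13684 had 32 UMIs beside 503 of Itgav in WT and 40 beside 724 in KO mesenchymal-like cells.

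Itga1, the alpha subunit of a collagen and laminin receptor with Itgb1, was shared by mesenchymal-like and endothelial-like cells, and the libraries differed in opposite directions there. Mesenchymal-like cells had 579 CPM in WT (551 to 608) and 667 in KO (639 to 696), with a log2 ratio of 0.20 (0.11 to 0.30). With the WT sub-clusters weighted to KO mix it was -0.028. Endothelial-like cells had 557 (538 to 576) and 465 (453 to 478), with a log2 ratio of -0.26 (-0.32 to -0.20). In WT these 2 classes overlap, and in KO they do not. The endothelial difference was seen in clusters 5 (-0.26) and 10 (-0.36) but not in cluster 14 (0.06, -0.04 to 0.17).

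T-like cells held the third WT level of Itga1, 128 CPM (117 to 139, 561 UMIs), against 63.3 in KO (57.6 to 69.5, 443 UMIs), with a log2 ratio of -1.01 (-1.19 to -0.83). The Cd8a-led cluster had most of these UMIs, with 164 (151 to 178) and 86.7. The Foxp3-led cluster went the other way, with 18.7 and 34.7 from 14 and 69 UMIs (log2 ratio 0.81, 0.05 to 1.84). The Cd8a-led cluster held 504 of 742 WT but 465 of 959 KO T-like cells, so its level and its share of the class were both lower in KO.

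Itga5, the alpha subunit of the fibronectin receptor, stood highest among the named classes in cholangiocyte-like cells, at 136 CPM (126 to 146) and 162 (153 to 173). In WT this overlaps the macrophage-like level. The unnamed cluster that raised the mesenchymal markers had 381 and 276, from 50 and 40 UMIs. Macrophage-like cells had 127 (122 to 132) and 132 (128 to 136), with a log2 ratio of 0.05 that hides opposite clusters. It was -0.29 (-0.39 to -0.18) in cluster 1, 0.25 (0.10 to 0.40) in cluster 4 and 0.30 (0.15 to 0.46) in cluster 11. Endothelial-like cells had 101 (93.2 to 109) and 136 (129 to 143), with a log2 ratio of 0.43 (0.29 to 0.56). Mesenchymal-like cells had 49.5 (41.6 to 58.4) and 68.9 (60.0 to 78.8), with a log2 ratio of 0.48 (0.16 to 0.80) that was -0.23 after thinning.

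Itga9, which with Itgb1 binds tenascin C, osteopontin and VCAM-1, leaned higher in KO in most classes. All 15 classes had at least 20 of its UMIs, and the interval of its log2 ratio lay above 0 in 10 of them and below 0 in none. The median log2 ratio of all genes lay between -0.09 and 0.31 in these classes. Intervals lay above 0 for 26.1%, 22.2% and 35.2% of all genes in mesenchymal-like, endothelial-like and macrophage-like cells. That share was not counted in the other classes. Macrophage-like cells had 619 CPM in WT (609 to 629) and 736 in KO (726 to 746). Mesenchymal-like cells had 473 (448 to 499) and 604 (577 to 632), with a log2 ratio of 0.35 (0.25 to 0.45). The endothelial-like ratio was 0.73 (0.66 to 0.80), from 317 (303 to 331) and 526 (513 to 539). It was 0.58 in cluster 5 and 0.73 in cluster 10, and 0.18 (-0.01 to 0.37) in cluster 14. Hepatocyte-like cells, with 10 and 41 UMIs in 47 and 73 cells, had 1.19 (0.27 to 2.46).

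Itgb1, the beta subunit that partners Itga1, Itga5, Itga8, Itga9 and also Itgav, was spread over all 15 classes with at least 20 UMIs in each. Mesenchymal-like cells had 461 CPM in WT (436 to 487) and 505 in KO (480 to 531), and endothelial-like cells 439 (422 to 455) and 473 (460 to 485). The intervals of these 2 classes overlap in either library, and both stood above the next class. Their log2 ratios were 0.13 (0.03 to 0.24) and 0.11 (0.04 to 0.17). The first became -0.015 with median-of-ratios scaling and the second -0.038 after thinning. The unnamed cluster that raised the mesenchymal markers had 747 and 490, from 98 and 71 UMIs (log2 ratio -0.60, -1.07 to -0.15). Macrophage-like cells had less in KO, 184 (179 to 189) against 237 (230 to 243), with a log2 ratio of -0.37 (-0.42 to -0.31). The log2 ratio was -0.30 in cluster 1, -0.25 in cluster 4 and -0.19 (-0.33 to -0.05) in cluster 11. A finer split of the class was unequal between libraries, with 75 WT and 556 KO cells in 1 sub-cluster and 481 and 73 in another, and the part of this in the macrophage-like ratios was not tested. Thinned shares of macrophage-like cells with an Itgb1 UMI were 20.8% and 16.3%.

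Itgb5, the beta subunit of another vitronectin receptor with alpha v, was a gene of mesenchymal-like and macrophage-like cells. The former had 279 CPM in WT (259 to 299) and 323 in KO (304 to 344), with a log2 ratio of 0.21 (0.08 to 0.35). Without sub-cluster 0 it was -0.21. Macrophage-like cells had 206 (200 to 212) and 237 (231 to 243), with a log2 ratio of 0.20 (0.15 to 0.26) that was -0.023 after thinning. Patrolling monocyte-like cells had 56.8 (48.8 to 65.9) and 86.2 (78.8 to 94.1), with a log2 ratio of 0.60 (0.35 to 0.86). The cycling class had 12 and 15 Itgb5 UMIs, and its log2 ratio of 1.10 (-0.07 to 2.35) holds 0.

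**Figure D3:**
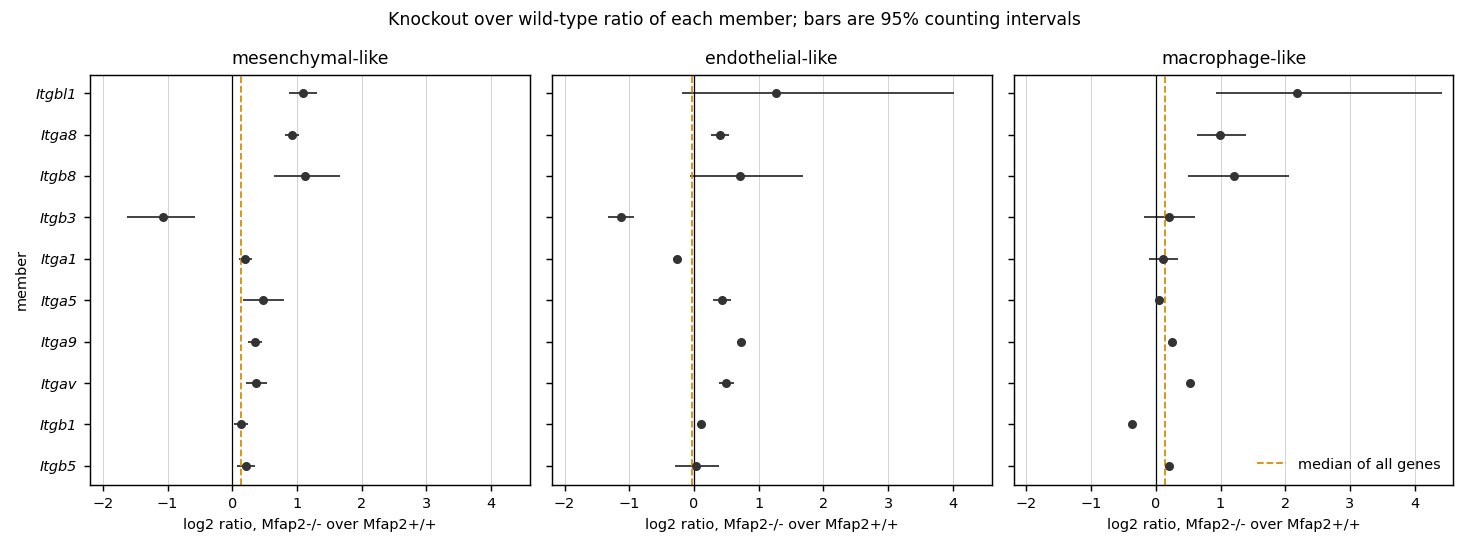
Log2 ratio of KO over WT level (x axis) for each member (y axis) in mesenchymal-like, endothelial-like and macrophage-like cells, with 95% counting intervals as bars and the median of all genes tested as a dashed line. Itgb3 lies at -1.08 and -1.13 in the first 2 classes, and Itgbl1, Itga8 and Itgb8 lie at 1.09, 0.92 and 1.13 in mesenchymal-like cells.

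The members were set beside all genes. In mesenchymal-like cells 9 were higher in KO and 1 lower, with a median log2 ratio of 0.36, beside 0.14 over 12210 genes with at least 20 UMIs. The members' median lay between the quartiles of all genes, -0.25 and 0.49. At least 1.5-fold higher were 3 of 10 members, beside 19.2% of all genes, and at least 1.5-fold lower was 1, beside 9.34%. The counting interval lay above 0 for 9 members, beside 26.1% of all genes, and below 0 for 1, beside 14.1%. Deeper genes have narrower intervals, so the share called by interval also depends on the level of a gene.

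In endothelial-like cells 8 members were higher and 2 lower, with a median of 0.41 beside -0.03 over 13772 genes (quartiles -0.37 and 0.30). At least 1.5-fold higher were 3, beside 11.0% of genes, and lower 1, beside 12.8%. Of those 3, Itgbl1 and Itgb8 had 20 and 67 UMIs in all and intervals that hold 0. Intervals lay above 0 for 5, beside 22.2%, and below 0 for 2, beside 24.0%. In macrophage-like cells the median was 0.23 beside 0.14 over 15113 genes. At least 1.5-fold higher were 3, beside 19.0%, and these were Itgbl1 (4 and 28 UMIs), Itga8 (84 and 216) and Itgb8 (20 and 61), all at levels of at most 7.43 CPM. None was 1.5-fold lower, beside 5.23%. Intervals lay above 0 for 6, beside 35.2%, and below 0 for 1, beside 20.2%.

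Gene length moved with the ratios in all 3 classes. All genes tested were put in 5 equal groups by annotated length, from 1 (shortest) to 5 (longest). Their median log2 ratios in mesenchymal-like cells were -0.29, -0.08, 0.11, 0.31 and 0.45, from group 1 to group 5. Group 1 stood at -0.37 and group 5 at 0.26 in endothelial-like cells, and at -0.10 and 0.42 in macrophage-like cells. The members' median of 0.36 in mesenchymal-like cells is below the 0.45 of group 5. In endothelial-like cells their median of 0.41 is above the 0.26 of group 5. In macrophage-like cells their median of 0.23 is below the 0.42 of group 5. Most of the members are long genes: Itgbl1 spans 315.6 kb, Itga9 294.3 kb and Itga8 195.3 kb, and 7 of the 10 fall in group 5. Against that group in mesenchymal-like cells (quartiles 0.19 and 0.69), Itgbl1, Itga8 and Itgb8 stood above the upper quartile. Itgav, Itga1, Itga9 and Itgb5 lay between the quartiles. Itgb3 stood far below the lower quartile of its own length group 4, which is 0.02. Nuclear RNA genes, a list that includes Malat1 and Neat1, had median log2 ratios of 0.46, 0.28 and 0.44 in the 3 classes. Dissociation stress genes had 0.13, 0.43 and 0.51. The part of gene length, nuclear RNA or stress in the members' ratios was not tested.

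**Figure D4:**
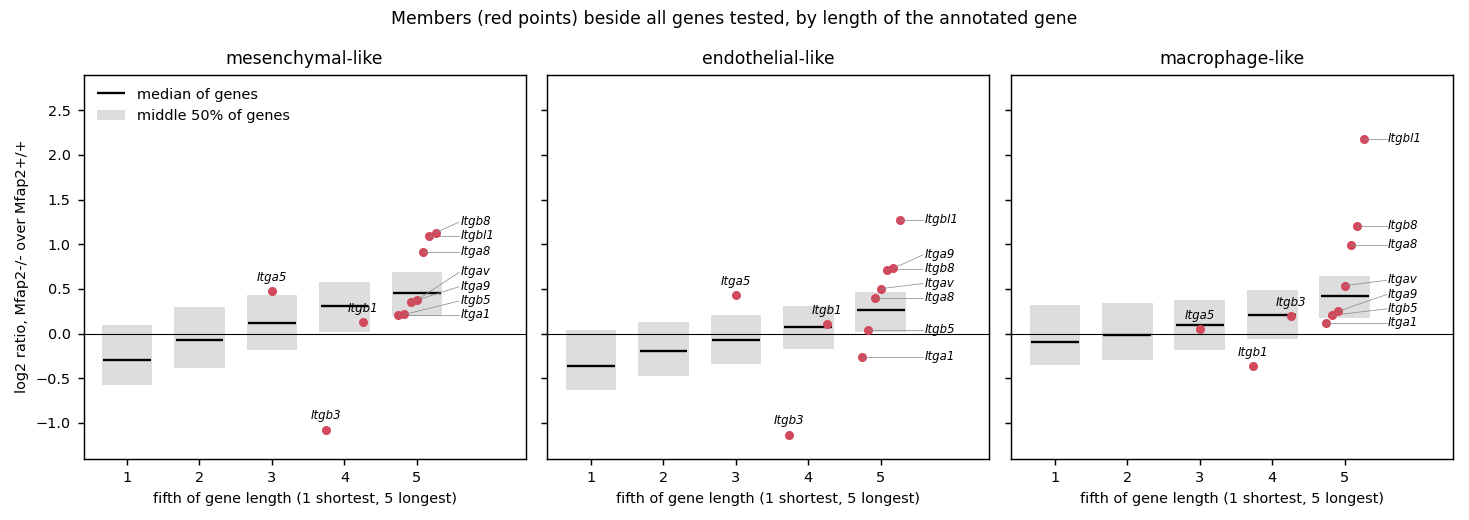
Log2 ratio of KO over WT (y axis) by group of annotated gene length (x axis, 1 shortest, 5 longest) in 3 cell classes, with grey boxes for the middle 50% of genes, black lines for their medians and red points for the members. Medians climb from -0.29 to 0.45 in mesenchymal-like cells; Itgbl1, Itga8 and Itgb8 lie above the grey box of group 5 and Itgb3 lies below that of group 4.

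The 14 mesenchymal markers of the mesenchymal-like class summed to 20673 CPM in WT and 15464 in KO. Markers of other cell types were also counted there. The 12 endothelial markers, all detected, summed to 617 CPM in WT and 623 in KO, and the 13 macrophage markers to 1102 and 1133, with Cd163 at 0 in WT. Among the lists that differed more were those of classical monocytes (7 of 7 detected, 964 and 621), B cells (8 of 8, 118 and 235) and hepatocytes (8 and 9 of 9, 132 and 294). Cycling markers (8 of 8) summed to 50.5 and 93.3. The part of these differences in the members' ratios was not tested.

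Other genes of the integrin system are given from lists put together with earlier results of these data known. Among 17 other integrin subunits, 11 had at least 20 UMIs in mesenchymal-like cells, with a median log2 ratio of 0.41 beside 0.14 over all genes. The interval lay above 0 for 3 and below 0 for none, beside 26.1% and 14.1% of all genes, shares that also stand beside the counts of the lists that follow. Among those with at least 50 UMIs the highest was Itga3, a laminin receptor subunit, with 16 and 36 UMIs (0.97, 0.13 to 1.97), followed by the collagen receptor subunit Itga11 (0.64, -0.02 to 1.37). The lowest were Itga2 (-0.35) and Itga6 (0.01), both with intervals that hold 0. With fewer UMIs, Itga10 (1.17), Itgam (-0.80) and Itga2b (-0.64) lay outside these values and are named after their values were seen.

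Matrix ligands of integrins were divided. Of 26 listed, 24 had enough UMIs, and the interval lay above 0 for 8 (26.1% of all genes) and below 0 for 8 (14.1%), with a median of 0.089. Svep1, a large matrix protein bound by Itga9, stood at 171 and 295 CPM (0.79, 0.63 to 0.95), and Spp1, osteopontin, at 147 and 239 (0.70, 0.53 to 0.88). Mfge8, an RGD protein that bridges alpha v integrins to dying cells, stood at 221 and 126 (-0.81, -0.998 to -0.627). Postn, periostin, stood at 165 and 117 (-0.49, -0.70 to -0.30).

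Of 30 genes of integrin activation and adhesion complexes, 28 had enough UMIs, with a median of 0.21. Intervals lay above 0 for 11, beside 26.1% of all genes, and below 0 for 5, beside 14.1%. Pxn, the adaptor paxillin, was at 0.69 (0.36 to 1.03) and Parvb at 0.63 (-0.10 to 1.44). Itgb1bp1, a negative regulator that binds the tail of Itgb1, was at -0.50 and the scaffold Ilk at -0.37 (-0.70 to -0.03). Of 14 genes of latent TGF-beta activation, intervals lay above 0 for 7 and below 0 for none, with a median of 0.074 beside 0.14 over all genes. The all-gene shares were again 26.1% and 14.1%. Nrros, which anchors latent TGF-beta on myeloid cells, had 63 and 138 UMIs (0.97, 0.54 to 1.43) and Tgfb2 had 145 and 274 (0.76, 0.47 to 1.07). Lowest were Ltbp4 at -0.23 (-0.45 to 0.00) and Lrrc32 at -0.21 (-0.51 to 0.09).

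The genes whose pattern over classes was most like that of each member were found by Pearson correlation of log2(CPM + 1) over 15 classes in 2 libraries, 30 points that share libraries and depth. Class markers, the members and genes with fewer than 200 UMIs in all cells kept were left out of this search. For Itgbl1 the genes most like it were Ajap1 (0.960), Srpx2 (0.955) and Gm12153 (0.948). For Itga8 they were Col5a2 (0.967), Ston1 (0.958) and Nhs (0.951). For Itga9 they were Ptprm (0.920), Sash1 and Sbf2, for Itgb1 Smad1 (0.909), Lrp5 and Luzp1, and for Itgb8 Ptpn13 (0.906), Ankrd6 and Map2. Itga1 was most like Klhl3 (0.896), F2r and Tmem158, Itgb5 most like Lrp1 (0.889), Dapk1 and Rnf150, and Itgav, after Gm13684 (0.896), most like Pik3r1 and Pkp4. Itgb3 was most like Ppp1r16b (0.859), Rabgap1l and Fnbp1, and Itga5 most like Noct (0.853), Fnip2 and Trim8. Among the members themselves Itgbl1 was closest to Itga8 (0.766) and Itga1 (0.642), and its correlation with Itgav was 0.079 and with Itgb3 0.024.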

How the data were processed

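Single-cell data of 1 WT and 1 KO library were used. Values are whole UMI counts per gene and barcode as the authors deposited them, and the file headers name Cell Ranger 7.0.1. The submitters' processing notes name Cell Ranger 3.1.0, Seurat and mm10. The use of strand and of intronic reads is not given in the sources used here. Of 32285 gene identifiers, 99.6% occur in GENCODE M21 (GRCm38), used for positions and lengths only.

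A barcode was kept if it had 200 genes or more and a mitochondrial share of UMIs no higher than 20% (413 WT and 149 KO barcodes were dropped). The highest Scrublet scores were removed at 0.8% per 1000 cells (1034 and 1295 cells; scanpy 1.11.5), since the automatic threshold marked 0.0616% of WT cells, too few to be a working call. Counts were scaled to 10000 per cell and logged. Both libraries were clustered together on 2000 variable genes, 30 components, 15 neighbours and Leiden resolution 1 (leidenalg 0.10.2); members, list genes, Mfap2, mitochondrial, ribosomal and haemoglobin genes were left out. To be named, a cluster needed 3 or more markers that were 2-fold or more above other cells and seen in 10% or more of its own, and it stayed unnamed where its leading 10 genes or a low median depth went against the name. There are no replicates, so no test was run. Poisson intervals were used for levels, Clopper-Pearson intervals for shares and exact conditional intervals for ratios; the ratio step was tested on simulated data. Counts and medians cover genes with 20 or more UMIs in WT and KO together. Thinning to 1000 UMIs left out 918 and 597 cells. The erythroid marker sum in mesenchymal-like cells is not reported here.

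The members and lists were chosen with earlier results of these data known. All 10 members are named; from each list, the 2 highest and 2 lowest mesenchymal-like ratios among genes with at least 50 UMIs; for each member, the 3 genes most like it; and any member with a log2 ratio of 1 or more in size in a class with at least 20 of its UMIs.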

Additional observations from a re-analysis of the deposited data

Results flagged for a closer look

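Among mesenchymal-like, endothelial-like and macrophage-like cells, 2 members had intervals on opposite sides of 0 in different classes, with every value resting on 1 library per genotype. Itga1 was higher in KO in mesenchymal-like cells (log2 ratio 0.20) and lower in endothelial-like cells (-0.26), and the ratios differ by 0.463. Itgb1 was higher in mesenchymal-like cells (0.13) and lower in macrophage-like cells (-0.37), which differ by 0.498. It was also higher in endothelial-like cells (0.11), which differ from macrophage-like cells by 0.473. In the shallow unnamed cluster that raised the mesenchymal markers, Itgb1 was lower in KO (-0.60, -1.07 to -0.15). The median log2 ratio of all genes was 0.14 in mesenchymal-like, -0.03 in endothelial-like and 0.14 in macrophage-like cells. In mesenchymal-like cells the length groups of Itga1 and Itgb1 had medians of 0.45 and 0.31, both above the members' own ratios. There Itga1 became -0.028 with WT weighted to KO mix, and Itgb1 became -0.015 with median-of-ratios scaling. In endothelial-like cells Itgb1 became -0.038 after thinning. The differences between classes were not tested.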

How the results depend on the processing

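No paired analysis was possible because each genotype has 1 library. The members' median log2 ratio was above 0 in all alternatives run: 0.22 to 0.49 in 16 alternatives in mesenchymal-like cells, and 0.14 to 0.46 and 0.069 to 0.26 in 13 alternatives each in endothelial-like and macrophage-like cells. The value of 0.069 came from scaling by the median of ratios, which shifts all log2 ratios of macrophage-like cells by -0.16, of mesenchymal-like cells by -0.15 and of endothelial-like cells by 0.02. Itgbl1 in mesenchymal-like cells left its counting interval when no doublets were removed (1.57), with the automatic doublet threshold (1.76), after thinning (1.31), with WT sub-clusters weighted to KO mix (0.75) and without sub-cluster 0 (0.36). Of 406 further values for single members, 317 stayed in the interval of the reported value. Another 79 left it in the same direction or from an interval that held 0. The last 10 changed sign, each from an interval that did not hold 0. In mesenchymal-like cells these were Itgav with the automatic doublet threshold (-0.036), Itga5 after thinning (-0.23), Itgb1 with median-of-ratios scaling (-0.015), Itga1 with WT weighted to KO mix (-0.028), Itgb5 without sub-cluster 0 (-0.21), and Itgb3 without sub-cluster 0 (0.29), with KO weighted to the WT mix (0.70) and with the reverse (0.055). After thinning, Itgb1 in endothelial-like (-0.038) and Itgb5 in macrophage-like cells (-0.023) also did. Some ratios whose interval held 0 also fell below 0 in some alternatives and are not among the 10. In endothelial-like cells these were Itgb5 (lowest -1.04) and Itgb8 (-0.20). In macrophage-like cells they were Itga1 (-0.18), Itga5 (-0.10) and Itgb3 (-0.98). Beyond what the alternatives' own construction shows, the cause was not tested. The weightings, the step without sub-cluster 0, the addition of the unnamed mesenchymal cluster and the step without platelet marker cells were chosen after seeing the data. Depth limits Itgb8, Itgb3 and, outside mesenchymal-like cells, Itgbl1, each with under 150 UMIs in some of the sums used. WT sums were also under 150 for Itga5 in mesenchymal-like (139), Itga8 in macrophage-like (84) and Itgb5 in endothelial-like cells (112). Several members had fewer still in the smaller classes.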
